A study of Arabidopsis thaliana with 3 samples.

Results

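The WRKY genes of Arabidopsis thaliana encode a plant family of transcription factors named after a run of conserved amino acids in their DNA-binding domain. A gene was a member when its symbol or a synonym in the RefSeq gene table of assembly TAIR10.1 was WRKY plus a number, with or without the prefix AT, and 72 of 27444 protein-coding genes on chromosomes 1 to 5 were members. Of these, 67 were found by their symbol and 5 by a synonym, which were ZAP1 (WRKY1), TTR1 (WRKY16), TTG2 (WRKY44), RRS1 (WRKY52) and ABO3 (WRKY63). BDH1 is a BCL-DOMAIN HOMOLOG protein that the study's title ties to the SWI/SNF chromatin remodelling complex. Its genomic binding was measured by chromatin immunoprecipitation and sequencing (ChIP-seq) with an anti-FLAG antibody in the inflorescences of soil-grown plants under long days. The groups were 2 samples with the genotype bdh1-1 BDH1-FLAG, in which a FLAG-tagged BDH1 was expressed in the bdh1 mutant, and 1 Wild type sample without the tag. The promoter of the transgene, the number of lines and the age of the plants were not given in the sources used here, and nothing said whether the replicates came from separate plants, so the spread between them may be technical. No values of the Wild type sample were analysed here, so the signal that the antibody gives without a tag is not known and no comparison between groups was made.

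SWI/SNF complexes use the energy of ATP to slide or remove nucleosomes and so change which stretches of DNA are open to other proteins. WRKY factors bind a short DNA element called the W-box, which is common in the promoters of defence genes, and many WRKY genes carry that element themselves and act on one another. They are best known for immunity and leaf senescence, and single members act in pollen, seeds, trichomes and flowering. The family is divided by its DNA-binding domain. Group I carries a pair of WRKY domains, group II carries a single one with the same kind of zinc finger and is split into IIa to IIe, and group III carries a single domain with another kind of zinc finger.

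A BDH1-FLAG peak overlapped a minority of the WRKY genes. In both lists 26 of the 72 genes (36.1%) had a peak, against 45.4% of all protein-coding genes. The list of replicate 1 had a peak at 28 WRKY genes (38.9%), against 48.9% of all protein-coding genes, and the list of replicate 2 at 27 (37.5%), against 49.8%. The mean was 27.5 ± 0.707 genes per list (SD, n = 2), so the lists differed by 1 gene in number. A further 3 genes had a peak in a single list, and 43 had none in either. With a summit, the highest point of a peak, required inside the gene in both lists, 25 genes remained (background 42.0%). The difference from all protein-coding genes was not tested over samples, since genes are not replicates of a condition, and how deeply each library was read is not known from the lists.

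The count per group of the family ran from 0 of 8 genes to 6 of 7, beside a background of 45.4% of all protein-coding genes. Group IId, whose members also carry a calmodulin-binding stretch, had a peak in both lists at 6 of 7 genes. Group I had one at 7 of 14, group IIe at 4 of 8, group IIa at 2 of 3 and group III at 5 of 14. Group IIc had one at 2 of 18 genes, and group IIb at 0 of 8. The median gene length was 2865.5 bp in group IIb, 2147 bp in group IId, 2445 bp in group I and 1734.5 bp in group IIc, and its part in the counts was not tested. Groups were assigned from the family's usual classification and were not checked against protein sequences, and no test of a difference between groups was run.

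**Figure D1:**
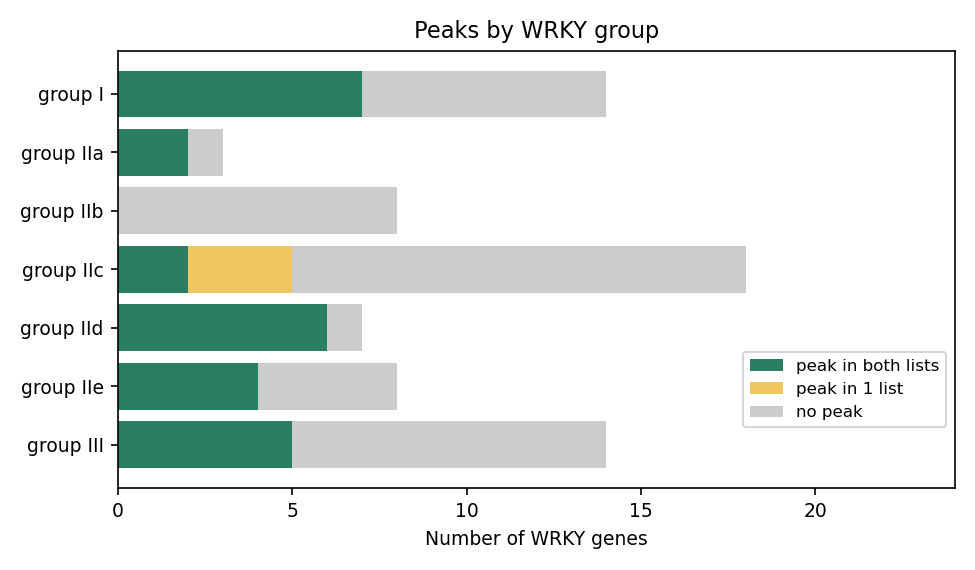
Number of WRKY genes (x axis) in each group of the family (y axis), split by colour into genes with a BDH1-FLAG peak in both replicate lists, in 1 list and in none. Group IId has a peak at 6 of its 7 genes, whereas all 8 genes of group IIb have none in either list.

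The best mean rank over both lists was found at WRKY32, WRKY2, WRKY11, WRKY7, WRKY70, WRKY17, WRKY39 and WRKY3. Peak height is the authors' fold enrichment, a linear ratio at the summit, and ranks count from 1 for the highest peak among 16653 in replicate 1 and 16413 in replicate 2. Over the 26 genes with a peak in both lists, the highest peak per gene had a median fold enrichment of 2.55 in replicate 1 (range 1.98 to 3.49) and of 2.21 in replicate 2 (range 1.56 to 3.15). Over all protein-coding genes with a peak in both lists, the same median was 2.43 for replicate 1 and 2.41 for replicate 2. The WRKY genes therefore stood above that median in replicate 1 and below it in replicate 2. The median WRKY gene had a highest peak above 71.0% of all peaks of replicate 1 and above 48.5% of those of replicate 2. These shares set the highest peak of a gene beside every peak, whose median was 2.25 in replicate 1 and 2.23 in replicate 2. The median over all protein-coding genes with a peak in both lists was also above these values, so the shares are no trait of WRKY genes. Across these 26 genes the values of both lists had a Spearman correlation of 0.79, as a description over genes whose peaks come from the same pair of libraries.

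**Figure D2:**
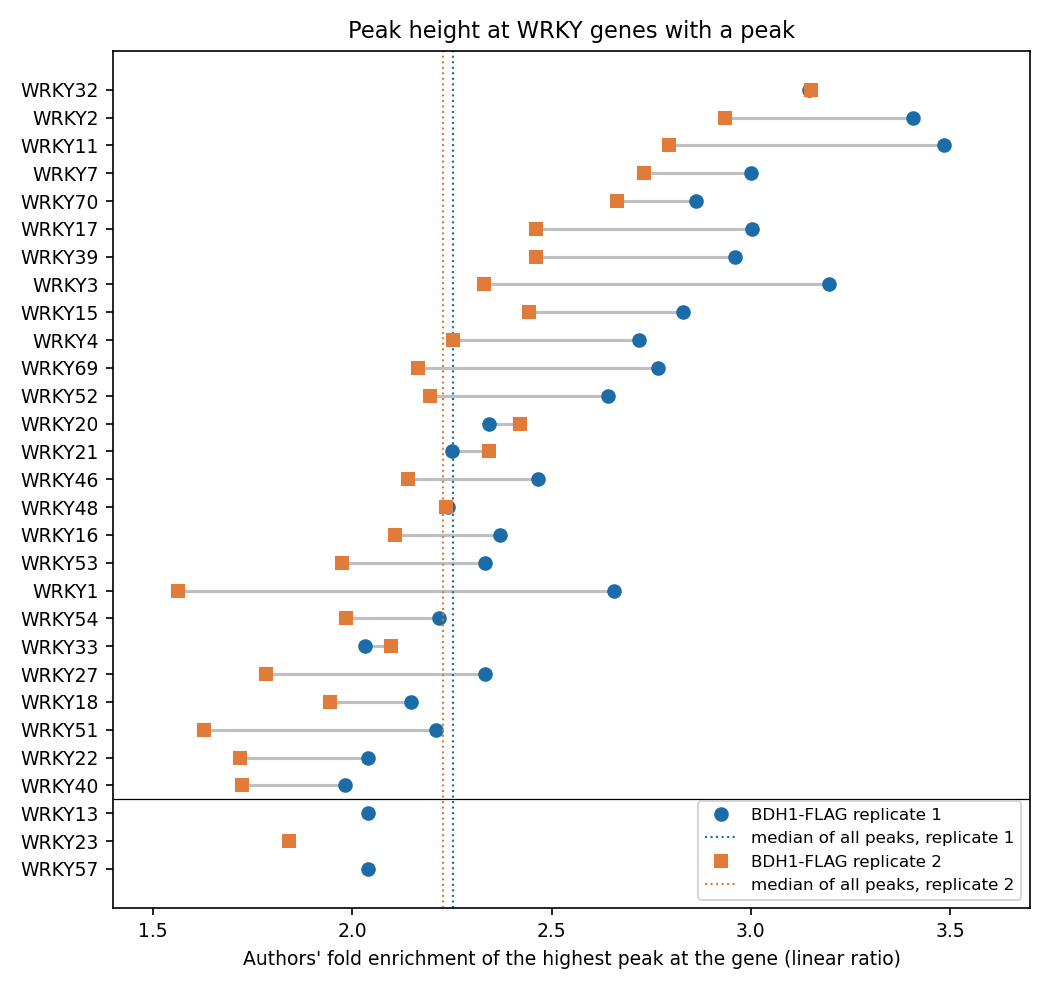
Authors' fold enrichment (x axis, linear ratio) of the highest peak at each WRKY gene with a peak (y axis, ordered by mean rank over both lists), with circles for replicate 1, squares for replicate 2 and dotted lines for the median of all peaks in each list (2.25 and 2.23). The 3 genes under the black line have a peak in a single list, and at WRKY1 the replicates lie farthest apart, at 2.66 and 1.56.

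Group I held the 2 genes with the best mean rank. WRKY2, which acts in pollen development and seed germination, had a peak at chr5:22779242-22780641 in replicate 1 (fold enrichment 3.41, rank 683) and at chr5:22779648-22780622 in replicate 2 (fold enrichment 2.93, rank 1614). Coordinates are 1-based and in the build TAIR10 named in the submitters' processing notes. Its summits lay 529 bp and 395 bp inside one end of the gene, 134 bp apart. WRKY32 had separate peaks at its opposite ends in both lists. The higher one lay at chr4:15053595-15054526 in replicate 1 (fold enrichment 3.15, rank 1281) and at chr4:15053598-15054526 in replicate 2 (fold enrichment 3.15, rank 854). Its summits, 245 bp and 226 bp inside the gene, were 19 bp apart. The peak at the other end had a fold enrichment of 2.90 in replicate 1 and 2.76 in replicate 2, with summits 138 bp and 190 bp outside WRKY32, and it also overlapped NFD1 (NUCLEAR FUSION DEFECTIVE 1).

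WRKY3 and WRKY4, close relatives that act in resistance to necrotrophic fungi, both had a peak in both lists. At WRKY3 it lay at chr2:1016281-1017059 in replicate 1 (fold enrichment 3.20, rank 1153) and at chr2:1016242-1017096 in replicate 2 (fold enrichment 2.33, rank 6869). At WRKY4 the highest peak had a fold enrichment of 2.72 in replicate 1 and 2.25 in replicate 2. WRKY33, a regulator of camalexin synthesis and of resistance to necrotrophic fungi, had low peaks, at 2.03 in replicate 1 and 2.10 in replicate 2. The WRKY33 intervals of the lists shared only 2 bp, and their summits lay 458 bp apart, so the peak was found in both lists but not at the same place. WRKY20 had values of 2.34 and 2.42, and WRKY1 had 2.66 in replicate 1 and 1.56 in replicate 2, where it ranked 16250 of 16413.

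The other 7 genes of group I had no peak in either list. They were WRKY10, WRKY19, WRKY25, WRKY26, WRKY34, WRKY44 and WRKY58. Among them are 3 genes known from reproduction and epidermal development. At WRKY34, which acts in pollen with WRKY2, the nearest peak was 2211 bp away in replicate 1 and 2035 bp away in replicate 2. At WRKY10 (MINI3), which acts in endosperm growth, it was 2177 bp and 2130 bp away. At WRKY44 (TTG2), which acts in trichomes and the seed coat, it was 1748 bp and 1740 bp away. WRKY25, which has been placed with WRKY33 downstream of the kinase MPK4, had its nearest peak 1832 bp and 1899 bp away.

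In group IId the 6 genes with a peak had a median fold enrichment of 2.98 in replicate 1 and 2.46 in replicate 2, and the covered share of the gene ranged from 17.8% at WRKY21 in replicate 1 to the whole gene at WRKY15 in replicate 2. WRKY11 and WRKY17, which hold back basal resistance to bacteria, were both among the 8 best. WRKY11 had its highest peak at chr4:15289949-15291652 in replicate 1 (fold enrichment 3.49, −log10 q 26.1, rank 563) and at chr4:15289949-15291573 in replicate 2 (fold enrichment 2.80, −log10 q 15.5, rank 2368). The summits were 6 bp apart and lay near the middle of the gene, 1047 bp and 1053 bp from the nearest end. WRKY17 had a peak at chr2:10438283-10439285 in replicate 1 (fold enrichment 3.00, rank 1826) and at chr2:10438508-10439255 in replicate 2 (fold enrichment 2.46, rank 5270). Its summits were 9 bp apart, 738 bp and 729 bp inside the gene.

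WRKY7 was covered over 99.2% of its length by a single peak in replicate 1, at chr4:12571555-12573795 (fold enrichment 3.00, rank 1838). In replicate 2 it had a pair of peaks, the higher at chr4:12571664-12572765 (fold enrichment 2.73, rank 2824), which covered 76.2% of the gene together. WRKY15, which acts in responses to osmotic stress, was covered over 85.2% of its length in replicate 1 and in full in replicate 2, with fold enrichments of 2.83 and 2.44 and summits 13 bp apart. WRKY39, which acts in heat tolerance, had a peak at chr3:1267462-1268941 in replicate 1 (fold enrichment 2.96, rank 2019) and at chr3:1267527-1268319 in replicate 2 (fold enrichment 2.46, rank 5313). WRKY21 had a fold enrichment of 2.25 in replicate 1 and 2.34 in replicate 2, with 17.8% and 26.0% of the gene covered. WRKY74 had no peak, and the nearest one was 27494 bp away in replicate 1 and 27466 bp in replicate 2. Over the 6 genes with a peak, the median covered share of the gene was 66.3% in replicate 1 and 55.8% in replicate 2. In the 7 genes of group I it was 22.3% and 23.8%. All genes of group IId were 1487 to 2380 bp long and those of group I 1760 to 8171 bp, and the part of length was not tested. Outside group IId, WRKY46 (78.1% and 62.5%), WRKY69 (68.6% and 78.8%) and WRKY70 (63.9% and 63.0%) were also widely covered, and the other members less.

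Group IIa consists of WRKY18, WRKY40 and WRKY60, which bind one another and act in basal defence. WRKY18 had a fold enrichment of 2.15 in replicate 1 and 1.94 in replicate 2, and WRKY40 had 1.98 and 1.72. Both lay below the median of all peaks in their list, so the peaks were among the lower ones. At WRKY40 the summits were nevertheless 7 bp apart, 250 bp and 243 bp inside the gene. WRKY60 had no peak, but one lay close by, 200 bp away in replicate 1 and 106 bp away in replicate 2. It was the single gene added when 500 bp beside each gene were counted as well, which gave 27 genes (37.5%, background 52.1%).

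In group III, peaks were found at WRKY46, WRKY54 and WRKY70, which act together in defence and in growth under brassinosteroids, and also at WRKY53 and WRKY52. WRKY70, which balances salicylate and jasmonate responses, had the highest peak of them. It lay at chr3:20909356-20910578 in replicate 1 (fold enrichment 2.86, rank 2464) and at chr3:20909341-20910545 in replicate 2 (fold enrichment 2.66, rank 3375). Its summits, 288 bp and 275 bp inside the gene, were 13 bp apart. WRKY46 had fold enrichments of 2.47 and 2.14. Its summits lay 770 bp apart and on opposite sides of the gene's middle, the widest gap of the 26 genes. The interval of replicate 2 nevertheless lay wholly within that of replicate 1. WRKY53, a regulator of leaf senescence, had 2.33 in replicate 1 and 1.97 in replicate 2, and WRKY54 had 2.22 and 1.98.

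WRKY52 is RRS1, an immune receptor that carries a WRKY domain and works with its neighbour RPS4. The peak at chr5:18325682-18326560 in replicate 1 (fold enrichment 2.64) and at chr5:18325657-18326477 in replicate 2 (fold enrichment 2.20) overlapped both RRS1 and RPS4. The summit lay 148 bp inside RRS1 in replicate 1 and 186 bp outside it in replicate 2, so this is the 1 gene that no longer counted when the summit had to lie inside. The other 9 genes of group III, namely WRKY30, WRKY38, WRKY41, WRKY55, WRKY62, WRKY63, WRKY64, WRKY66 and WRKY67, had no peak in either list. WRKY54 and WRKY55 are neighbours on chromosome 2, and the peak at WRKY54 did not reach WRKY55, whose nearest peak lay 779 bp away in replicate 1 and 720 bp away in replicate 2.

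In group IIe the peaks were at WRKY16, WRKY22, WRKY27 and WRKY69. WRKY22 and WRKY29 act downstream of the flagellin receptor. WRKY22 had a low peak, with a fold enrichment of 2.04 in replicate 1 and 1.72 in replicate 2, and WRKY29 had none, with the nearest one 5250 bp and 5158 bp away. WRKY16 (TTR1), which like RRS1 encodes an immune receptor with a WRKY domain, had 2.37 and 2.11, with summits 128 bp and 290 bp inside one end of a gene of 5080 bp. WRKY27 had 2.33 and 1.78. WRKY69 had peaks towards both of its ends in both lists, the higher with 2.77 in replicate 1 and 2.16 in replicate 2. WRKY14, WRKY35 and WRKY65 had no peak.

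Group IIc is the largest, with 18 genes, and had few peaks. WRKY48, which holds back basal resistance, had a fold enrichment of 2.24 in replicate 1 and 2.23 in replicate 2. WRKY51, which with WRKY50 acts in salicylate-dependent repression of jasmonate signalling, had 2.21 and 1.63, and WRKY50 had no peak, the nearest lying 3599 bp and 3676 bp away. The 3 genes with a peak in a single list all belong to this group. WRKY13, which acts in flowering time and stem cell walls, had one in replicate 1, at a fold enrichment of 2.04 with 4.58 as −log10 q. WRKY57, known from drought tolerance and senescence, had one in replicate 1 with the same values. WRKY23 had one in replicate 2, at a fold enrichment of 1.84 with 3.06 as −log10 q.

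WRKY12, which acts on flowering time in opposition to WRKY13, had no peak, and the nearest lay 2304 bp away in replicate 1 and 2306 bp in replicate 2. WRKY71, which promotes shoot branching and flowering, had its nearest peak 6387 bp and 6343 bp away. WRKY75, which acts in phosphate starvation, senescence and flowering, had its nearest peak 1666 bp and 1602 bp away, and WRKY45, which acts in phosphate uptake, had it 1022 bp and 894 bp away. The other genes of group IIc without a peak were WRKY8, WRKY24, WRKY28, WRKY43, WRKY49, WRKY56, WRKY59 and WRKY68.

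None of the 8 genes of group IIb had a peak in either list. They were WRKY6, WRKY9, WRKY31, WRKY36, WRKY42, WRKY47, WRKY61 and WRKY72. WRKY6, a regulator of senescence, defence and phosphate transport, had its nearest peak 9585 bp away in replicate 1 and 9449 bp in replicate 2. At WRKY47 the nearest peak was 547 bp and 546 bp away, and at WRKY36 it was 649 bp and 702 bp away. WRKY31 lay far from any peak, at 24552 bp and 24545 bp. WRKY42 was 81753 bp from the nearest peak in replicate 1, the greatest distance of all WRKY genes, but 7697 bp in replicate 2.

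Most summits at the 26 genes lay inside the genes, as they did over all protein-coding genes with a peak in both lists. Only peaks that overlapped the gene were counted, a rule that by itself favours summits inside it. In replicate 1, 29 of 31 summits of overlapping peaks were inside the WRKY gene (93.5%), and in replicate 2, 28 of 30 (93.3%). The corresponding shares over all protein-coding genes with a peak in both lists were 89.8% and 89.2%. The median distance to the nearest end of the gene, positive inside, was 425 bp for replicate 1 and 298 bp for replicate 2. The mean of these medians was 361.5 bp ± 89.8 (SD, n = 2), against 255 bp in each list over all protein-coding genes with a peak in both. A summit within 500 bp of an end of the gene, inside or outside it, was found in both lists at 16 of the 72 genes (22.2%). The share of all protein-coding genes was 43.3%. Any peak counted here, also one beside the gene that did not overlap it, so these genes are not all among the 26. WRKY11 counted through lower peaks near its ends. At 7 genes, namely WRKY11, WRKY15, WRKY17, WRKY18, WRKY20, WRKY22 and WRKY33, the summit of the highest peak was more than 500 bp inside the gene in both lists. The share of all protein-coding genes under this rule is not given here, so the 7 are a description of single genes. Strand was not in the gene table, and starts and ends of genes are therefore not distinguished.

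**Figure D3:**
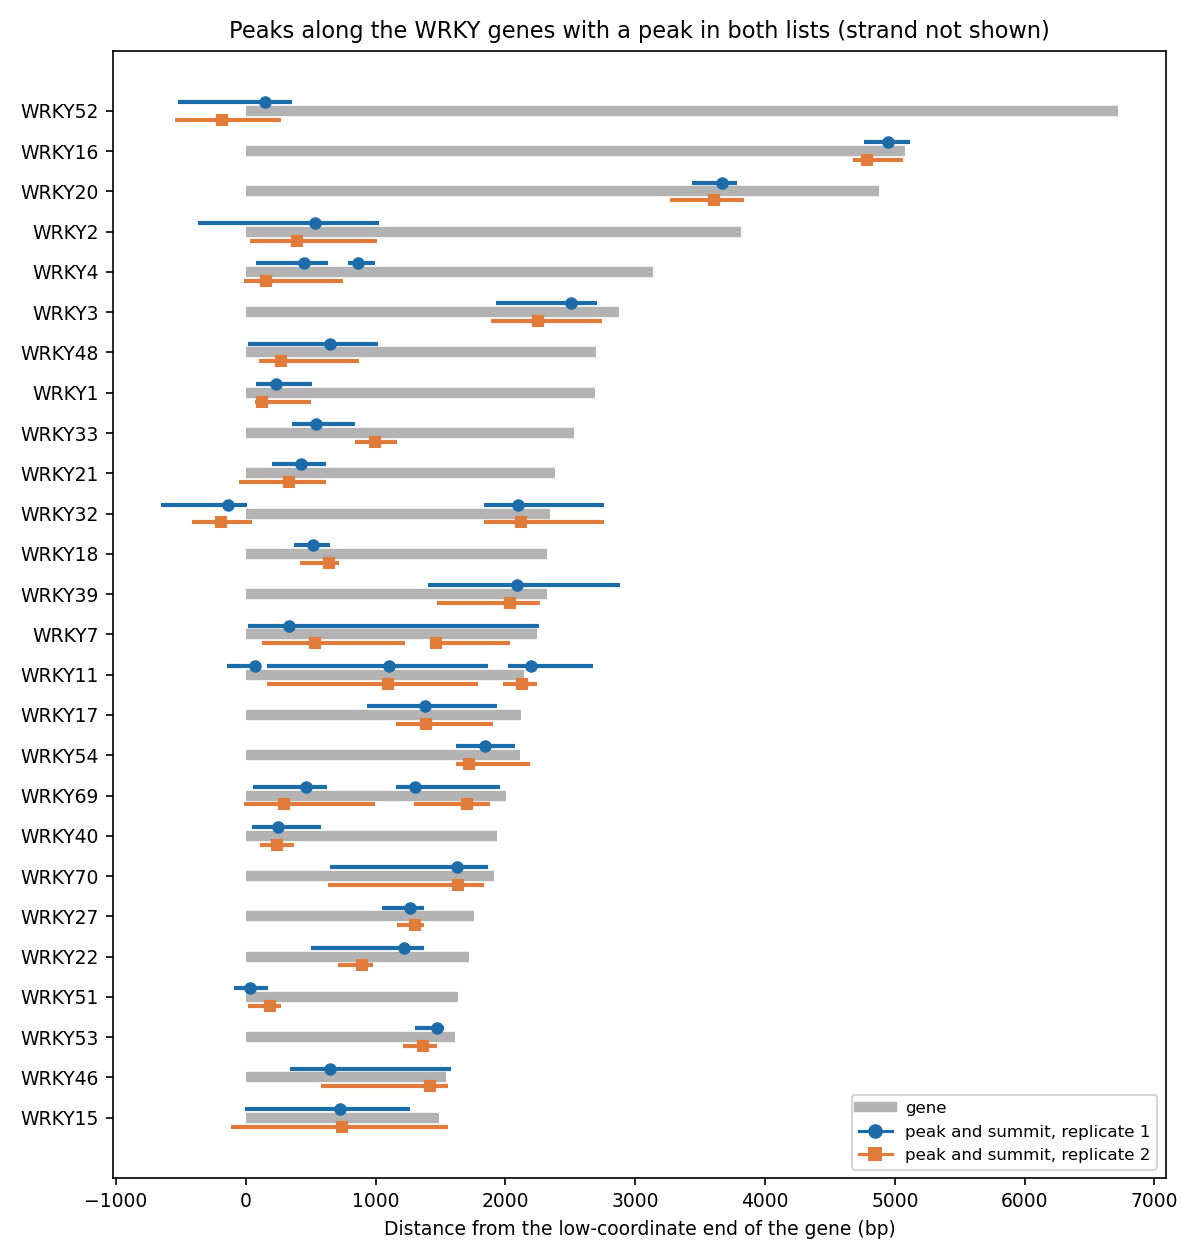
Peaks (coloured lines) and summits (circles for replicate 1, squares for replicate 2) along the 26 WRKY genes with a peak in both lists (grey bars, ordered by length), with the distance from the low-coordinate end of the gene in bp on the x axis. Summits of both lists lie close together at genes such as WRKY11 and WRKY70 and far apart at WRKY46 and WRKY33, and WRKY32 has peaks at its opposite ends.

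The intervals of both lists overlapped each other at all 26 genes. The summits of the highest peaks were a median of 123.5 bp apart, from 6 bp at WRKY11 to 770 bp at WRKY46, and they were within 100 bp of each other at 10 genes and more than 300 bp apart at 5, which were WRKY22, WRKY33, WRKY46, WRKY48 and WRKY52. The highest summit lay on the same side of the gene's middle in both lists at 25 genes, WRKY46 being the exception. The highest peak per gene had a median width of 675.5 bp in replicate 1 and 755.5 bp in replicate 2, against 539 bp and 559 bp for the highest peak per gene over all protein-coding genes with a peak in both lists. At 4 genes a peak also overlapped another protein-coding gene, at WRKY15, WRKY32, WRKY52 and WRKY69.

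The lowest −log10 q of any listed peak was 1.32 for replicate 1 and 1.31 for replicate 2. The members just inside this threshold were WRKY51, with 5.33 in replicate 1 and 1.76 in replicate 2, and WRKY1, with 9.86 and 1.93. The 3 genes called in a single list had values there from 3.06 at WRKY23 to 4.58 at WRKY13 and WRKY57. They have no value in the other list, so how far they were from the threshold in it is not known. With a −log10 q of at least 5 in both lists, 15 WRKY genes had a peak (background 30.2%), and all of them were among the 26. With at least 10 in both lists, 4 did, WRKY2, WRKY11, WRKY32 and WRKY70 (5.56%, background 9.12%).

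Gene length was set beside the counts, since longer genes leave more room for a peak. The median WRKY gene was 2113.5 bp long, against 2078 bp for all protein-coding genes. The 26 genes with a peak in both lists had a median of 2284.5 bp (range 1487 to 6718 bp) and the 43 without a median of 1760 bp (range 714 to 8171 bp). In the second of 5 equal length groups, from 1146 to 1789 bp, 6 of 26 WRKY genes had a peak (23.1%), against 39.2% of all protein-coding genes. In the group above it the share was 11 of 22 (50%), against 50.8%, in the fourth group 5 of 14 (35.7%), against 58.0%, and in the longest 4 of 8 (50%), against 62.1%. Neither of the 2 WRKY genes in the shortest group had one. The share of WRKY genes was thus at or below that of all genes in each length group. The longest member without a peak was WRKY19, at 8171 bp.

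**Figure D4:**
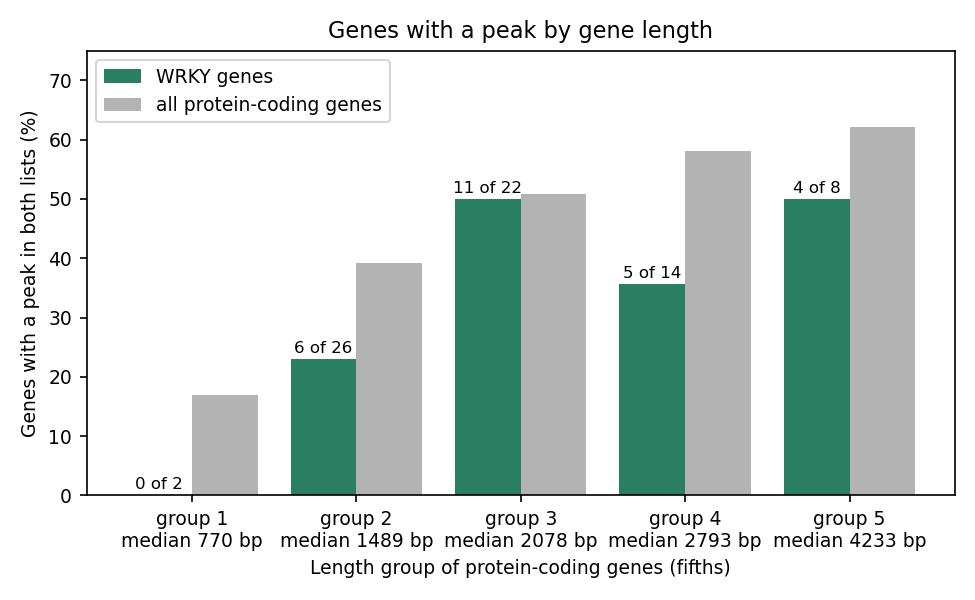
Percentage of genes with a BDH1-FLAG peak in both lists (y axis) among WRKY genes (green, with counts) and all protein-coding genes (grey) in 5 equal groups of protein-coding genes by length (x axis, median length in bp). The shares are close in the third group, at 50% and 50.8%, and the WRKY share is lower in the other groups.

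Genes that act before or after WRKY factors in immunity were counted in the same way. Of 34 listed genes, 24 had a peak in both lists (70.6%, background 45.4%). The median length of the 34 was 2781 bp, and 58.0% of all protein-coding genes of 2403 to 3310 bp had a peak. The list was chosen with earlier results of these data known, so its share is a description and was not tested. All 4 receptor-level genes had one, namely FLS2, EFR, BAK1 and BIK1. FLS2 had low peaks, at a fold enrichment of 1.63 in replicate 1 (rank 16367) and 1.83 in replicate 2 (rank 14418). Its highest peaks in the lists did not overlap each other. A lower peak of replicate 1, at a fold enrichment of 1.60, held the whole interval of replicate 2. A peak in both lists was also found at 8 of 9 genes of the MAP kinase cascades that phosphorylate WRKY factors. The same held for 2 of 3 genes of VQ proteins, which bind WRKY factors, and 10 of 12 genes of salicylate signalling. None of the 6 genes at the output end had a peak, which were PR1, PR2 and PR5 of the pathogenesis-related proteins, PAD3 and CYP71A13 of camalexin synthesis, and FRK1. These 6 genes had a median length of 1723 bp, against 4363.5 bp for the receptor-level genes. It was 3036.5 bp for the salicylate genes, 2462 bp for the MAP kinase cascades and 984 bp for the VQ proteins. Of all protein-coding genes, 39.2% of those of 1146 to 1789 bp had a peak, and 62.1% of those of 3310 bp or longer. The part of length in these counts was not tested.

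The best ranked gene of this list was SIB1, a VQ partner of WRKY33. Its peak lay at chr3:21006894-21007645 in replicate 1 (fold enrichment 3.23) and at chr3:21006989-21009121 in replicate 2 (fold enrichment 3.10). MKK5, a MAP kinase kinase, had 3.03 in replicate 1 and 3.01 in replicate 2, and MPK3, a MAP kinase that it activates, had 3.03 and 2.79. MKK1 and NPR1 had a peak in replicate 2 alone, with fold enrichments of 2.08 and 2.13, MKS1 had one in replicate 1 alone, with 2.22, and CBP60G had none.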

How the data were processed

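The authors deposited 1 narrowPeak list per BDH1-FLAG replicate. Bowtie2 2.5.2, SAMtools, bedtools 2.31.1, MACS2 2.2.9.1 and the build TAIR10 are named in the submitters' processing notes, without their settings. The control library is not given in the sources used here. The deposited lists give for each peak a fold enrichment (a linear ratio), a −log10 p and a −log10 q, and these values were compared only among peaks of the same list. The score deposited by the authors was not used. Read depth is not given in the lists.

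A gene had a peak when an interval overlapped it by 1 bp or more in both lists. Summits are column 2 plus column 10, given 1-based. Gene positions came from the RefSeq table of TAIR10.1. Within 250 bp of a gene end lay 41.2% of all summits of replicate 1 and 42.3% of replicate 2, against 21.9% to 23.5% with the genes moved by 2000 to 10000 bp. No genome or protein sequence was used. Python 3.11.15 and pandas 2.3.3 were used, and the overlap step was tested on simulated data. No test was run, as the lists form 1 group. The members, WRKY groups and immune list were chosen with earlier results of these data known. All 72 members are named. Intervals and ranks are given for the 8 with the best mean rank by fold enrichment, values for the others with a peak, and distances for those without a peak on a fixed list of well-studied WRKY genes. Single further genes, chosen after their values were seen, are WRKY19, WRKY31, WRKY36, WRKY42, WRKY47, WRKY50, WRKY55 and WRKY74, FLS2, and the immune genes with a peak in 1 list or none.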

Additional observations from a re-analysis of the deposited data

How the results depend on the processing

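The count of 26 WRKY genes was 26 with an overlap of at least 100 bp and 23 of 67 among genes found by symbol, and stayed within 1.5 times under the other overlap rules. It moved to 15 with the −log10 q threshold set to 5 and to 4 with it set to 10, as fewer peaks remained. All protein-coding genes moved to 8278 (30.2%) and 2504 (9.12%) in place of 12466. The 24 immune genes went to 18 (52.9%) and to 7 (20.6%). The 16 WRKY genes with a summit within 500 bp of an end moved to 6 with the −log10 q threshold of 5, to 7 with a window of 250 bp and to 31 with one of 1000 bp. Peaks beside a gene count in this rule, so the 31 can exceed 26. No share of all protein-coding genes is given for these settings, so the moves are not a result about WRKY genes. With a single list, the counts ran from 27 to 28 WRKY genes, 13412 to 13667 protein-coding genes, 25 to 26 immune genes and 20 to 21 genes with a summit near an end, and the median distance from 298 to 425 bp. The planned distance to the gene start was not run, as the gene table gives no strand. No paired analysis was possible because the lists form 1 group. Read depth is unknown, so it cannot be said whether deeper lists would hold peaks at more WRKY genes.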

Other observations

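The share of WRKY genes with a peak was lowest on chromosome 1. Differences between chromosomes were not tested, and the groups of the family were not matched between them. On chromosome 1, 2 of 16 had a peak in both lists (12.5%, against 45.8% of all protein-coding genes there), which were WRKY4 and WRKY40. On chromosome 2 it was 8 of 17 (47.1%, against 42.2%), on chromosome 3 it was 3 of 6 (50%, against 46.8%), on chromosome 4 it was 7 of 16 (43.8%, against 44.8%) and on chromosome 5 it was 6 of 17 (35.3%, against 46.5%). Chromosome 1 also holds WRKY63, WRKY64 and WRKY67, group III genes that lie close to one another and had no peak, with the nearest peak at least 4328 bp away in either list.

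The genes beside WRKY genes were counted too. Of the 52 nearest protein-coding neighbours of the 26 WRKY genes with a peak, 29 had a peak in both lists (55.8%), against 54.8% of the neighbours of all protein-coding genes with a peak. Of the 86 neighbours of the 43 WRKY genes without a peak, 34 had one (39.5%), against 37.6% of the neighbours of all protein-coding genes without a peak. Among these 43 genes, 18 lay more than 5000 bp from the nearest peak in both lists, and 5 lay within 1000 bp in both, WRKY36, WRKY43, WRKY47, WRKY55 and WRKY60. At 8 of the 43 both neighbours had a peak, namely WRKY9, WRKY10, WRKY12, WRKY24, WRKY41, WRKY44, WRKY55 and WRKY75. At 17 of the 43 neither neighbour had one. These counts have no share over all protein-coding genes without a peak beside them.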
